A study of Danio rerio with 24 samples.

Results

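Heart muscle loss was compared between a pair of distant organs of adult zebrafish by asking, gene by gene, whether the change in brain RNA after cardiomyocyte ablation differed from the change in kidney marrow RNA. The comparison was the interaction over the 8 RNA-seq libraries of the ablation experiment, that is, the brain change (ablation minus uninjured) minus the marrow change. These 8 libraries are among 14 RNA-seq libraries and 24 samples in all. They form 4 groups of 2 libraries each: brain after ablation, uninjured brain, whole kidney marrow after ablation and uninjured whole kidney marrow. Per the labels, all 4 groups came from male wild type fish of the EK strain aged 4 to 12 months. Ablation fish were bathed in tamoxifen at 0.5 to 0.7 µM for 17 h, and tissue was taken 7 days later. The labels used here do not give the transgene that makes tamoxifen kill heart muscle cells, whether uninjured fish had the same bath, or how many fish went into a library. Nothing in them says that replicates were separate animals, and each p-value therefore rests on the spread among these libraries alone.

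Zebrafish regrow heart muscle after its loss, and organs far from the heart can respond to the injury. The kidney marrow of a fish is its main blood-forming organ: stem cells and their erythroid, myeloid and thrombocyte offspring lie between kidney tubules, in a bed of sinusoidal vessels and stroma. The brain is made mostly of neurons and glia, and its vessels form a barrier to the blood. An interaction asks whether a treatment acts differently in each tissue, and a value of 0 means an equal log2 fold change in both. In bulk tissue, fewer cells of a type and less RNA per cell cannot be told apart.

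The libraries held 14364306 to 20469655 reads assigned to genes. Markers fitted the labelled tissues: the summed level of 31 neuronal markers was 23300 to 24600 CPM, the count scaled to library size, in brain and 171 to 230 in marrow, and that of 17 erythroid genes was 506 to 592 in brain and 6700 to 14300 in marrow. The marrow libraries also held kidney tubule RNA, with 42 nephron markers summing to 24500 to 32700 CPM, against 1260 to 1320 in brain. Of 14781 genes in the files, 13077 passed the filter on low counts and were tested, and 11444 of these were measured in both tissues.

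Log2 fold changes were wider in marrow than in brain, and so were the differences between replicates. Over the 11444 genes measured in both, the median size of the log2 fold change was 0.0767 in brain and 0.221 in marrow, and the 99th percentile was 0.759 in brain and 1.34 in marrow. The biological coefficient of variation, as 1 common estimate over genes, was 16.5% in marrow, 5.56% in brain and 12.1% over the 8 libraries. With 2 libraries per group the size of a response cannot be told apart from this spread. The changes in brain and marrow hardly followed each other: across genes, which share libraries and are not independent, Pearson's r was 0.0888 and Spearman's rho 0.0668. The sign was the same in 5948 genes, or 52%. Ablation libraries lay wholly on 1 side of the uninjured ones in 36% of these genes in brain and in 52.4% in marrow, so that non-overlap of groups as given below was common.

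**Figure D1:**
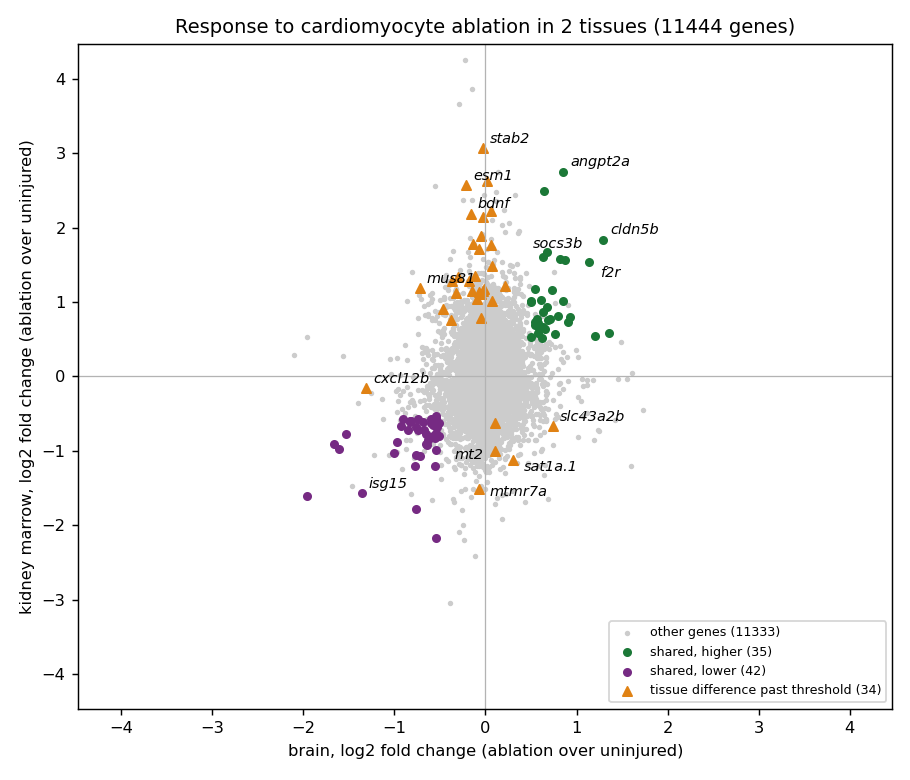
Log2 fold change after cardiomyocyte ablation in brain (horizontal axis) and kidney marrow (vertical axis) for 11444 genes, from the 8-library fit with 2 libraries per group. Triangles are the 34 genes whose tissue difference passed the threshold, most of which lie on the vertical axis; green and purple points are the 35 and 42 genes higher or lower in both tissues by the rule given in the text.

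The tissue difference passed the threshold for 34 of the 13077 genes tested (0.26%) by edgeR's quasi-likelihood test at a Benjamini-Hochberg adjusted p of 0.05. In 5 genes (0.0382%) the brain change lay above the marrow change, and in 29 (0.222%) below it. At an unadjusted p under 0.05 there were 2091 genes (16%). In 32 of the 34 genes the marrow change was the larger in size, and in 2, cxcl12b and slc43a2b, the brain change was. Over all genes measured in both, the median size was also larger in marrow, 0.221 against 0.0767 in brain. The count rested on all 4 brain libraries: leaving out any 1 of them left 0 genes by edgeR, with the smallest adjusted p between 0.19 and 0.202 and 1346 to 1489 genes at an unadjusted p under 0.05. Without replicate 1 of uninjured marrow the count was 313. All 34 genes kept their direction in each of these 5 fits. They were picked for large differences in these same libraries, so that a change of sign was unlikely from the start.

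Among the 29 genes with the brain change below the marrow change, the largest difference belonged to stab2, which encodes a scavenger receptor of sinusoidal endothelium. Its level was 713 and 404 CPM in marrow after ablation and 69.5 and 64.0 CPM in uninjured marrow, against 29.6 and 29.0 CPM in brain after ablation and 28.0 and 31.6 CPM in uninjured brain. Both ablated marrow libraries stood above all others, although they differed from each other, and the brain groups overlapped. Marrow changed by 3.06 ± 0.24 on the log2 scale (SE of the 8-library fit, n = 2 per group) and brain by -0.03 ± 0.24, a difference of -3.09 ± 0.34 (adjusted p = 0.0245, edgeR). This fit shares 1 estimate of spread per gene between the tissues, which holds also for the SE of the differences that follow. In the fits of each tissue alone the SE of stab2 was 0.09 in brain and 0.30 in marrow.

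A second vessel gene, esm1, encodes endocan, a proteoglycan secreted by endothelial cells. It was at 23.2 and 36.4 CPM in ablated marrow and at 5.29 and 4.79 CPM in uninjured marrow, and at 12.6, 13.2, 14.8 and 15.3 CPM in the ablated and then uninjured brain libraries. The marrow groups were far apart, while ablated brain lay slightly below uninjured brain. The difference in log2 fold change was -2.78 ± 0.30 (adjusted p = 0.0245, edgeR).

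The gene cp encodes ceruloplasmin, the copper-carrying ferroxidase of plasma. Its level was 71.2 and 69.6 CPM in ablated marrow and 21.3 and 16.8 CPM in uninjured marrow. In brain it was much higher and flat, at 500 and 559 CPM in ablated and 543 and 555 CPM in uninjured libraries. The tissue difference was -1.94 ± 0.16 on the log2 scale (adjusted p = 0.0245, edgeR), with 1.89 in marrow and -0.05 in brain.

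In bdnf, crhbp and rgs7bpa, which were higher in brain than in marrow in each uninjured library, the change was also larger in marrow. Of 30 neuronal markers, 7 fell and 0 rose in marrow by the 8-library fit, which called 3.36% of all genes lower and 6.97% higher there. The source of the marrow change in these genes was not tested. bdnf, which encodes brain-derived neurotrophic factor, rested on 8 reads in each uninjured marrow library and on 31 and 44 in the ablated ones. That is 1.99 and 2.19 CPM in ablated against 0.455 and 0.456 CPM in uninjured marrow, while the brain held 74.1, 79.9, 91.3 and 81.0 CPM. Ablated marrow lay above uninjured marrow and ablated brain below uninjured brain, without overlap, and the difference was -2.35 ± 0.24 (adjusted p = 0.0245, edgeR). A model with a variance factor for each tissue (voom) gave bdnf an adjusted p of 0.139. crhbp encodes a protein that binds corticotropin-releasing hormone. It held 634 and 567 reads in ablated marrow and 174 and 179 reads in uninjured marrow, with a difference of -1.91 ± 0.23 (adjusted p = 0.0313, edgeR), and brain levels ran from 56.7 to 64.2 CPM. rgs7bpa, which encodes a partner of a regulator of G protein signalling, differed by -1.71 ± 0.17 (adjusted p = 0.0245, edgeR), a call that the voom model did not make.

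Of the other genes with a large difference, cyp1c2, a cytochrome P450 gene, stood out by level. It was at 260 and 198 CPM in ablated and 65.7 and 74.5 CPM in uninjured marrow, and brain libraries held 3.63 to 4.00 CPM. tpm4b, a tropomyosin gene, was at 36.9 and 45.2 CPM in ablated marrow against 7.40 and 10.14 CPM, with 3.69 to 4.57 CPM in brain. Their differences were -1.78 ± 0.24 and -2.16 ± 0.29 on the log2 scale. glipr2l differed by -2.16 ± 0.26, with 5.66 and 7.12 CPM in ablated and 1.76 and 1.14 CPM in uninjured marrow. The voom model did not call cyp1c2 (adjusted p = 0.0554) or glipr2l (0.0578), and without replicate 2 of ablated marrow the adjusted p was 0.0657 for tpm4b and 0.055 for glipr2l by edgeR.

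**Figure D2:**
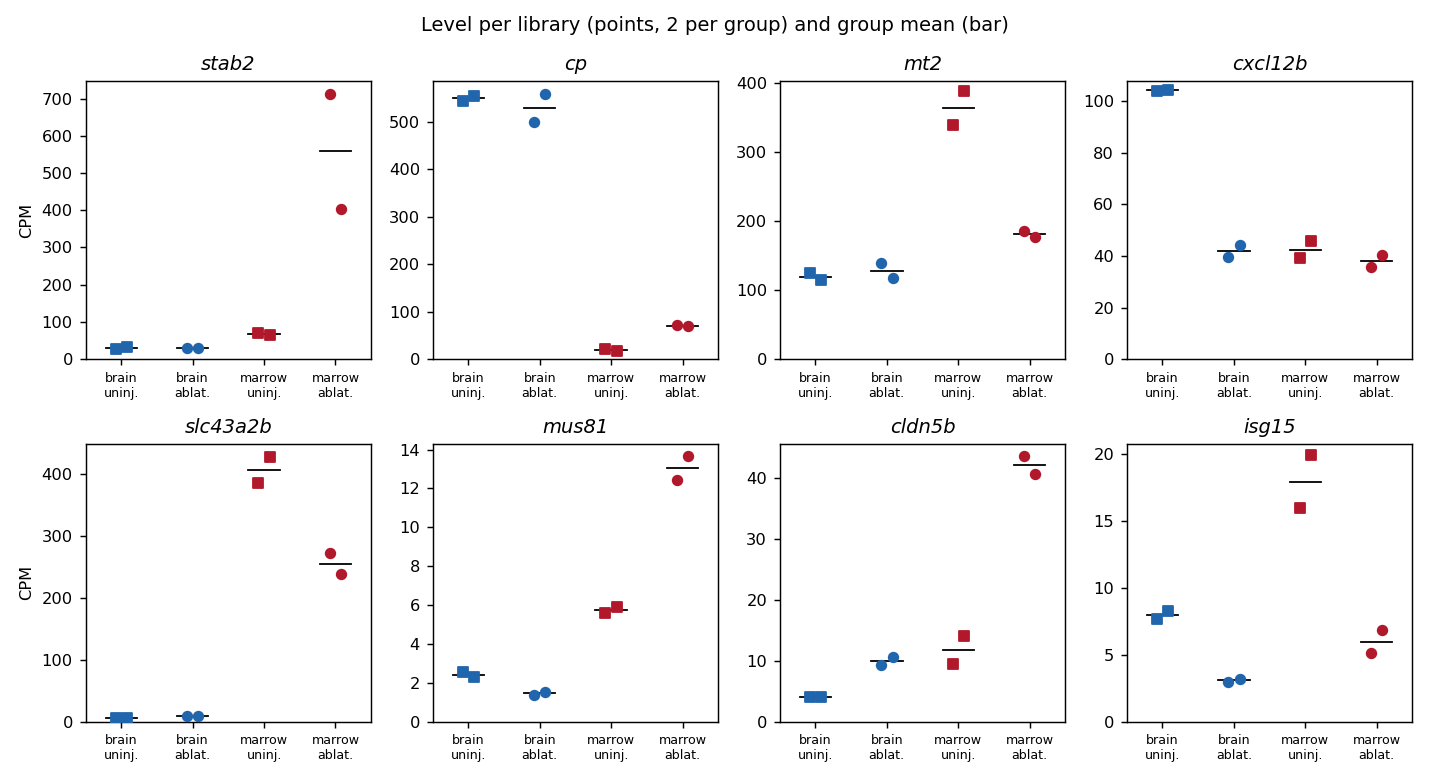
Level in CPM (vertical axis, from 0) of 8 genes in each library: squares are uninjured and circles ablation libraries, blue is brain and red kidney marrow, and the bar is the mean of the 2 libraries of a group. stab2, cp and mt2 stand apart between the marrow groups and overlap between the brain groups, and cxcl12b does the reverse. slc43a2b and mus81 move in opposite directions, and cldn5b and isg15 in the same direction in both tissues.

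Of the 42 measured genes of the cell cycle list, 1 was among the 29. That gene, lig1, encodes the DNA ligase that joins fragments at replication. It was at 95.6 and 101 CPM in ablated and 51.6 and 43.6 CPM in uninjured marrow, and at 20.5 to 22.4 CPM in brain, a difference of -1.14 ± 0.14 (adjusted p = 0.036, edgeR). A further 6 genes were picked for their known roles after their values were seen. smc2, a condensin subunit, differed by -1.37 on the log2 scale, suv39h1b, a histone methyltransferase of heterochromatin, by -1.44, and sae1, a subunit of the SUMO-activating enzyme, by -1.46. snrpg, a core spliceosome protein, differed by -1.20, atic, an enzyme of purine synthesis, by -1.19, and hars, which charges histidine tRNA, by -0.84. All 6 were higher in both ablated marrow libraries than in both uninjured ones, but they were picked from genes called for a higher marrow change. Marrow groups did not overlap, in 1 direction or the other, in 52.4% of all genes measured in both. itgb3b, the integrin beta 3 subunit of thrombocytes, was at 31.4 and 32.9 CPM in ablated and 12.1 and 13.5 CPM in uninjured marrow. Its difference was -1.64 ± 0.23 (adjusted p = 0.0462, edgeR), a call that voom did not make. The genes anxa13, calua, mdka, olfml3b, sfxn5b, tmem35, tuba8l3 and acat2 and 2 genes with clone symbols had differences from -0.93 to -2.61, and the last 2 of the 29, cxcl12b and mus81, are described with their classes. When 1 or the other ablated marrow library was left out, the adjusted p was 0.0527 and 0.064 for lig1 and 0.0719 and 0.0799 for itgb3b.

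The 5 genes with the brain change above the marrow change were lower in ablated than in uninjured marrow, with no overlap, and they include genes of polyamine, amino acid, metal and glutathione handling. sat1a.1 encodes spermidine/spermine acetyltransferase, which sends polyamines to breakdown. It was at 107 and 96.8 CPM in ablated and 235 and 208 CPM in uninjured marrow, and at 10.7, 10.4, 8.03 and 9.02 CPM in the ablated and then uninjured brain libraries. The groups were apart in both tissues, in opposite directions, but the brain change was under 0.5. The difference was 1.43 ± 0.15 on the log2 scale (adjusted p = 0.0245, edgeR). mt2, a metallothionein gene that binds zinc and copper, was at 185 and 177 CPM in ablated and 340 and 389 CPM in uninjured marrow. In ablated brain it was at 139 and 117 CPM, and in uninjured brain at 125 and 114 CPM, so that the groups overlapped there. Its difference was 1.11 ± 0.16 (adjusted p = 0.0462, edgeR).

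gstr, a glutathione S-transferase gene, was at 492 and 472 CPM in ablated and 742 and 741 CPM in uninjured marrow. It held 264 and 251 CPM in ablated and 243 and 238 CPM in uninjured brain, a difference of 0.72 ± 0.10 (adjusted p = 0.0462, edgeR). mtmr7a, a myotubularin-related phosphatase gene, was at 3.09 and 2.34 CPM in ablated and 7.80 and 7.58 CPM in uninjured marrow, from 47 to 137 reads per library. It held 65.5 to 71.1 CPM in brain, and its difference was 1.44 ± 0.18 (adjusted p = 0.0313, edgeR). The voom model did not call mtmr7a, and the adjusted p of mt2 was 0.0591 and 0.0657 when replicate 1 or 2 of ablated marrow was left out. That of gstr was 0.0554 without replicate 2.

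**Figure D3:**
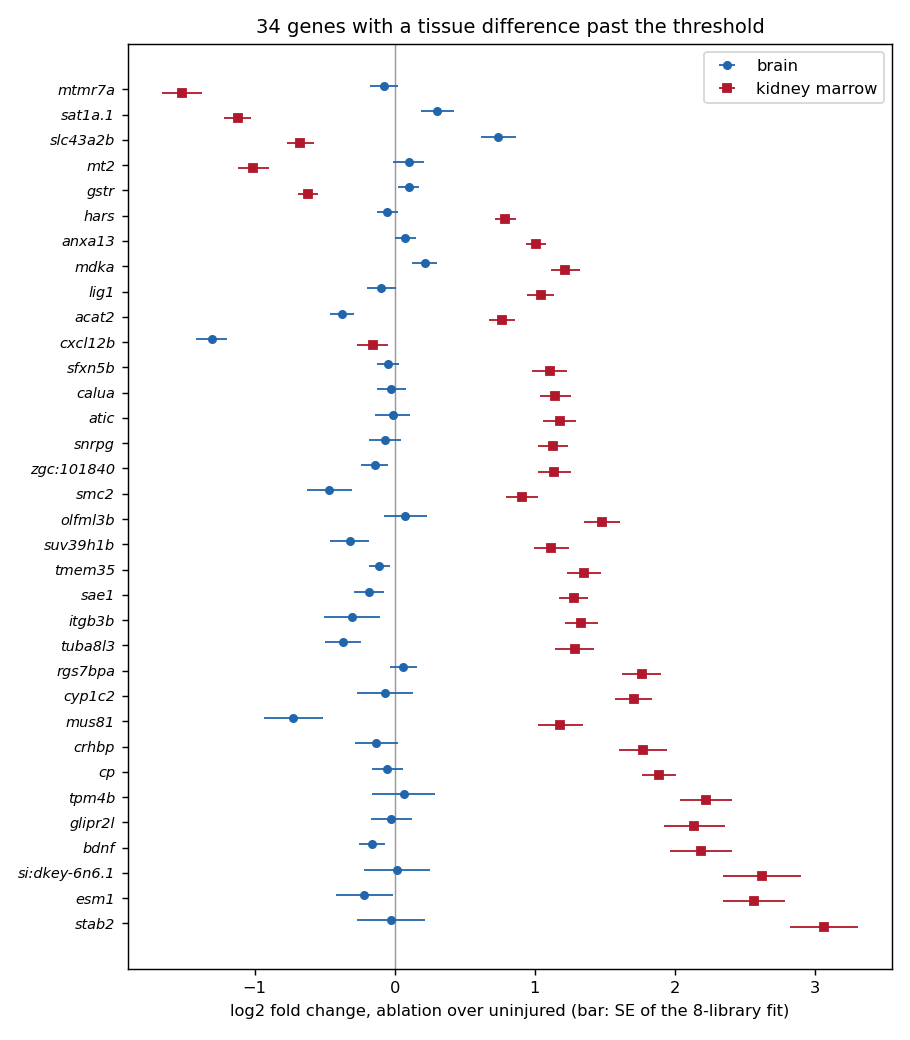
Log2 fold change after ablation (horizontal axis) in brain (blue circles) and kidney marrow (red squares) for the 34 genes past the threshold, with bars of 1 SE from the 8-library fit. The brain values largest in size are cxcl12b at -1.31, slc43a2b at 0.74 and mus81 at -0.72, and the marrow values reach 3.06 for stab2.

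Each gene was then placed by a rule that used both tissues. A tissue was said to respond where the log2 fold change was at least 0.5 in size and the 2 ablation libraries did not overlap the 2 uninjured ones, and a gene was private to a tissue where the interaction was called, that tissue responded and the other changed by less than 0.25. In brain 332 genes (2.9%) responded, 167 higher (1.46%) and 165 lower (1.44%). In marrow 1768 (15.4%) did, 1037 higher (9.06%) and 731 lower (6.39%). By this rule, 22 genes (0.192%) were higher in marrow alone and 3 (0.0262%) lower in marrow alone. In brain alone 1 gene was lower (0.00874%) and 0 were higher. The rule did not ask the groups of the other tissue to overlap. In bdnf, esm1, crhbp, lig1, mtmr7a, gstr, mdka and others private to marrow, the brain groups were also apart. mdka rose by 0.22 in brain and by 1.22 in marrow. Brain groups did not overlap in 36% of all genes measured in both. DESeq2 placed 111 and 71 genes as private to marrow and 5 as private to brain. Since these classes need the interaction call, they were empty without any 1 brain library, and without replicate 1 of uninjured marrow the marrow classes held 154 and 92 genes.

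The gene private to brain was cxcl12b, which encodes a chemokine that guides cells through the receptor Cxcr4. It was at 39.7 and 44.4 CPM in ablated brain and at 104 CPM in both uninjured brain libraries. In ablated marrow it was at 35.9 and 40.2 CPM, and in uninjured marrow at 39.2 and 45.8 CPM. Brain levels were thus clearly apart and marrow levels overlapped. The brain change was -1.31 on the log2 scale (adjusted p = 1.14e-05 in the fit of the 4 brain libraries, edgeR), the marrow change was -0.16, and the difference was -1.15 ± 0.15 (adjusted p = 0.043, edgeR). Without replicate 2 of ablated marrow the adjusted p of the difference was 0.0669 by edgeR.

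Few genes responded in brain (2.9%), which limits how many could respond in both tissues. Both tissues responded with the same sign in 77 genes (0.673%), described below, and with opposite signs in 39 (0.341%). Of the 39, 16 were higher in brain (0.14%) and 23 higher in marrow (0.201%), and 2 had a called interaction, 1 in each direction (0.00874% each). slc43a2b encodes a transporter of large neutral amino acids. It was at 9.66 and 9.35 CPM in ablated and 5.89 and 5.47 CPM in uninjured brain, and at 272 and 239 CPM in ablated and 386 and 428 CPM in uninjured marrow. No group overlapped its control: the brain change was 0.74 ± 0.12, the marrow change -0.67 ± 0.09, and the difference 1.41 ± 0.16 (adjusted p = 0.0245, edgeR). mus81 encodes a nuclease subunit that cuts branched DNA. It was at 1.39 and 1.53 CPM in ablated and 2.56 and 2.29 CPM in uninjured brain, from 21 to 43 reads, and at 12.4 and 13.7 CPM in ablated and 5.58 and 5.93 CPM in uninjured marrow. The direction was down in brain at -0.72 and up in marrow at 1.18, with a difference of -1.91 ± 0.26 (adjusted p = 0.0452, edgeR). The brain change passed no threshold in either gene, with an adjusted p of 0.0673 for slc43a2b and 0.59 for mus81 in the 4 brain libraries by edgeR. It did in acat2, which the limit of 0.5 left without a class. acat2 fell by 0.37 in brain (adjusted p = 0.0418, 4 brain libraries, edgeR) and rose by 0.76 in marrow (adjusted p = 0.00541, 8-library fit, edgeR), without overlap. In the other called genes without a class, sat1a.1, tuba8l3, suv39h1b, itgb3b and smc2, groups also lay apart in opposite directions, but with no brain call. Brain groups did not overlap in 36% of all genes measured in both, and these genes had been picked for a large tissue difference. itgb3b rested on 19, 25, 26 and 25 reads in the ablated and then uninjured brain libraries. With size factors of the RLE method the adjusted p for mus81 was 0.0518, and it was 0.0591 and 0.0755 when replicate 1 or 2 of ablated marrow was left out and 0.0533 without replicate 2 of uninjured marrow.

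Responses of the same sign were found in 77 genes (0.673%), 35 of them higher (0.306%) and 42 lower (0.367%) in both tissues. The interaction was called in 0 of the 77 by edgeR, with 7 at an unadjusted p under 0.05, and in 2 by DESeq2 and 0 by voom. Its 95% interval held 0 in 70 of them. That interval reached a median of 0.938 on the log2 scale to either side, so that equal changes were not shown. The change was larger in marrow in 53 of the 77, a count to be read beside the median size over all genes measured in both, 0.221 in marrow and 0.0767 in brain. Of the 77, 12 were called in the 4 brain libraries, and 32 in marrow by the 8-library fit. By edgeR, none of the 77 passed in both tissues by 1 kind of fit. The 4 marrow libraries alone gave 0 calls by edgeR, and its 8-library fit called only cxcl12b in brain. DESeq2 over the 8 libraries passed cldn5b, isg15 and socs3b in both tissues. Their adjusted p in brain was 0.0037, 0.00706 and 0.0467 by DESeq2. In marrow it was at most 0.0045, 0.00817 and 0.00428 over all alternative settings that kept the 8 libraries. The genes nearest to the limit of 0.5 were crabp2b at 0.50 just inside and tlr18 at -0.49 just outside. With 1 library left in a group, non-overlap is easier to meet, so that the counts that follow can rise for that reason alone. Leaving out 1 library gave 39 to 58 genes in the higher class and 44 to 86 in the lower class, with the highest counts without replicate 2 and replicate 1 of uninjured brain.

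By the smaller of both changes, cldn5b, f2r, socs3b, dkk3b, angpt2a and aqp8a.1 came first among named genes higher in both tissues, and cldn5b was the 1 gene of the endothelial list in that class. cldn5b encodes a claudin of endothelial tight junctions. It was at 9.40 and 10.7 CPM in ablated and 4.11 and 4.13 CPM in uninjured brain, and at 43.7 and 40.7 CPM in ablated and 9.51 and 14.1 CPM in uninjured marrow. The groups were apart in both tissues. The brain change of 1.29 ± 0.16 passed the threshold in the 4 brain libraries (adjusted p = 0.00596, edgeR) but not in the 8-library fit (0.633). The marrow change of 1.83 ± 0.18 passed it in the 8-library fit (adjusted p = 0.00316, edgeR) but not in the 4 marrow libraries (0.074). The difference was -0.55 (adjusted p = 0.38, edgeR). f2r, the gene of a thrombin receptor, was at 4.1 and 5.16 CPM against 2.26 and 1.97 CPM in brain, and at 50.8 and 38.2 CPM against 14.7 and 16 CPM in marrow, with changes of 1.14 and 1.53. angpt2a, which encodes a ligand of the endothelial receptor Tie2, changed by 0.85 in brain and 2.75 in marrow. The brain value of f2r and that of angpt2a did not pass the threshold.

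socs3b encodes a feedback inhibitor of cytokine signalling through JAK and STAT proteins. It was at 15.8 and 17.9 CPM in ablated and 8.51 and 9.91 CPM in uninjured brain, and at 156 and 113 CPM in ablated and 46.8 and 44.2 CPM in uninjured marrow. All ablated libraries lay above the uninjured ones of the same tissue. It rose by 0.87 in brain (adjusted p = 0.0163, 4 brain libraries, edgeR) and by 1.56 in marrow (adjusted p = 0.00324, 8-library fit, edgeR). fn1b, a fibronectin gene of the extracellular matrix, rose by 0.63 in brain (adjusted p = 0.00596) and by 1.61 in marrow (adjusted p = 0.00976), by the same fits. dkk3b and the water channel gene aqp8a.1 were also in the class, at 0.86 and 0.81 in brain, where neither passed the threshold (adjusted p = 0.177 and 0.765, edgeR), and 1.01 and 1.58 in marrow. aqp8a.1 rested on 10 to 25 reads per brain library. Without replicate 2 of ablated marrow the marrow change of dkk3b had an adjusted p of 0.0573.

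Among named genes lower in both tissues, isg15, which encodes a ubiquitin-like protein induced by interferon, came first by the smaller of both changes. It was at 2.98 and 3.22 CPM in ablated and 7.68 and 8.26 CPM in uninjured brain, and at 5.15 and 6.82 CPM in ablated and 15.9 and 19.9 CPM in uninjured marrow. Uninjured libraries were above ablated ones without overlap in both tissues. It fell by 1.36 on the log2 scale in brain (adjusted p = 0.00852, 4 brain libraries, edgeR) and by 1.57 in marrow (adjusted p = 0.00483, 8-library fit, edgeR). The difference was 0.22, with a 95% interval from -0.43 to 0.86.

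slc38a9, a lysosomal amino acid transporter gene, fell by 0.77 in brain (adjusted p = 0.0381) and by 1.21 in marrow (adjusted p = 0.00639), by the same fits. sqlea encodes squalene epoxidase of cholesterol synthesis. It was at 16.5 and 20.9 CPM in ablated and 31.7 and 31.8 CPM in uninjured brain, where it passed the threshold (adjusted p = 0.0147), and at 3.73 and 1.69 CPM against 6.72 and 4.22 CPM in marrow, where it did not (adjusted p = 0.106). The antiviral GTPase gene mxa was at -0.85 in brain and -0.72 in marrow, with neither past the threshold, although the marrow value passed it without replicate 1 of uninjured marrow (adjusted p = 0.0418, edgeR). cyp8b3, a cytochrome P450 gene, and ckmt2a, a mitochondrial creatine kinase gene, were in the class at -1.03 and -0.91 in marrow, but with an adjusted p of 0.203 and 0.195 there by edgeR. Without replicate 2 of uninjured brain the adjusted p of sqlea in brain was 0.0526. Without replicate 1 of ablated marrow sqlea and cyp8b3 passed the threshold in marrow (adjusted p = 0.0395 and 0.0277).

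The genes called in brain were followed into marrow, whose libraries had no part in that call. In the 4 brain libraries, 35 genes rose (0.283% of 12371) and 21 fell (0.17%) by edgeR, 56 in all (0.453%), with 847 (6.85%) at an unadjusted p under 0.05. Of the 35, 24 had a marrow change above 0 (68.6%, against 49.4% of all genes), with a median of 0.262. Of the 21, 6 had one above 0 (28.6%), with a median of -0.193. Without replicate 2 of ablated marrow the first median was 0.103, and without replicate 1 or 2 of uninjured marrow the second was -0.337 or -0.0847. The interaction was called in 0 of the 35 by edgeR (17 at an unadjusted p under 0.05, 10 by DESeq2 and 2 by voom) and in 2 of the 21, cxcl12b and acat2. In the 4 marrow libraries alone edgeR called 0 genes of 12160, with an adjusted p of 0.074 at the lowest. There 2384 genes (19.6%) were at an unadjusted p under 0.05, while DESeq2 called 429 higher and 178 lower. The 8-library fit, with its common spread for both tissues, called 912 higher (6.97%) and 440 lower (3.36%) in marrow, 1352 in all (10.3%), with 3625 (27.7%) at an unadjusted p under 0.05. A gene given here as changed in marrow passed that fit and not the fit of marrow alone. For brain the 8-library fit called 0 higher and 1 lower (0.00765%), cxcl12b, with 333 (2.55%) at an unadjusted p under 0.05. Among the marrow-called genes measured in both, 446 of 882 higher ones were above 0 in brain (50.6%, against 50.3% of all genes), and 154 of 416 lower ones were (37%). Without replicate 1 or 2 of ablated brain, the brain calls in the fit of the 4 brain libraries numbered 69 and 99 higher and 101 and 98 lower, and without replicate 1 or 2 of uninjured brain 48 and 12 lower.

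Of the genes called in brain, arrdc3b and cebpd had the largest brain rises among those named by p-value. arrdc3b encodes an alpha-arrestin, an adaptor for ubiquitin ligases. It was at 133 and 153 CPM in ablated and 39.0 and 55.0 CPM in uninjured brain, and at 127 and 226 CPM in ablated and 139 and 204 CPM in uninjured marrow. Brain groups were apart and marrow groups overlapped, but the difference of 1.56 ± 0.42 had an adjusted p of 0.133 by edgeR. cebpd encodes a C/EBP transcription factor of inflammation and stress, and is the gene knocked out elsewhere in the study. Its level was 59.8 and 44.9 CPM in ablated and 27.08 and 23.2 CPM in uninjured brain, and 155 and 194 CPM in ablated and 244 and 115 CPM in uninjured marrow. The ablated marrow values lay between the uninjured ones. The brain rose by 1.06 (adjusted p = 0.00596, 4 brain libraries, edgeR), the marrow change was -0.04, and the difference was 1.09 ± 0.45 (adjusted p = 0.293, edgeR), which does not show cebpd to be private to brain. Leaving out 1 library moved that difference between 0.50 and 1.58.

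Other brain-called genes behaved in several ways in marrow. abcc4, a transporter gene for organic anions, rose by 1.01 in brain (adjusted p = 0.00377) and was at 0.26 in marrow. msmo1, an enzyme of cholesterol synthesis, fell by 0.58 in brain (adjusted p = 0.0109) and by 0.65 in marrow (adjusted p = 0.0183, 8-library fit). rgcc, a cell cycle regulator gene, fell by 0.94 in brain (adjusted p = 0.0209) and was at 0.02 in marrow, with the difference at an adjusted p of 0.141. In lpin1, which encodes a phosphatidate phosphatase of lipid synthesis, 1 library decided the marrow value: ablated marrow held 16.5 and 107 CPM against 26.5 and 20.6 CPM. ptgdsb, a prostaglandin D synthase gene, likewise held 90.5 and 18.9 CPM in ablated marrow against 66.7 and 115 CPM.

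Gene lists were compared by the count and the median of their members beside those of all 11444 genes. Of all these genes, 50.3% were above 0 in brain and 49.4% in marrow, and the median was near 0 in both. By the 8-library fit, 6.97% of the 13077 genes tested were called higher in marrow and 3.36% lower. In the 4 brain libraries 0.283% of 12371 rose and 0.17% fell. Counts of called list members are to be read beside these shares, and the lists were chosen with earlier results of these data known. The cell cycle list stood farthest apart between the tissues. All 42 of its measured members were above 0 in marrow, with a median of 0.952, and 27 rose there by the 8-library fit. In brain 18 of 42 were above 0 and the median was -0.0135. The median difference was -0.971, and over all settings tried it ran from -1.27 to -0.69. mki67, a marker of proliferating cells, was at 372 and 308 CPM in ablated and 182 and 123 CPM in uninjured marrow, and rose by 1.15 (adjusted p = 0.011, 8-library fit, edgeR), while brain held 9.09 to 13.4 CPM. pcna, the sliding clamp of replication, was at 323 and 283 CPM against 174 and 132 CPM in marrow and 46.1 to 51.4 CPM in brain. rrm2, a subunit of the enzyme that makes deoxyribonucleotides, rose by 1.16 in marrow (adjusted p = 0.0048). Only lig1 of this list passed the interaction threshold.

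Genes of red blood cell formation also had a higher median change after ablation in marrow than in brain. In the list of haem synthesis and iron, 13 of 18 members were above 0 in marrow, with a median of 0.592, against 7 of 18 and -0.0213 in brain. The 6 that rose by the 8-library fit were hmbsa, hmbsb, urod, cpox and fech, which encode enzymes of haem synthesis, and tfr1a, the transferrin receptor of erythroid cells. urod was at 226 and 189 CPM in ablated and 108 and 77.2 CPM in uninjured marrow, and at 11.5 to 12.8 CPM in brain. Of 15 erythroid genes, 13 were above 0 in marrow, with a median of 0.417, and 1 rose, gata1a, the erythroid transcription factor, by 0.99 (adjusted p = 0.029), a share near the 6.97% of all genes called higher in marrow by that fit. The summed level of the erythroid list was 14300 and 8580 CPM in ablated and 9980 and 6700 CPM in uninjured marrow, so that its groups overlapped. Of these lists 0 genes were called for the tissue difference by edgeR, with 7 of the haem list and 6 of the erythroid list at an unadjusted p under 0.05, and DESeq2 called 4 and 0. The median difference of the haem list ran from -0.87 to -0.21 over the fits that left out 1 library, and that of the erythroid list from -0.82 to -0.15.

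**Figure D4:**
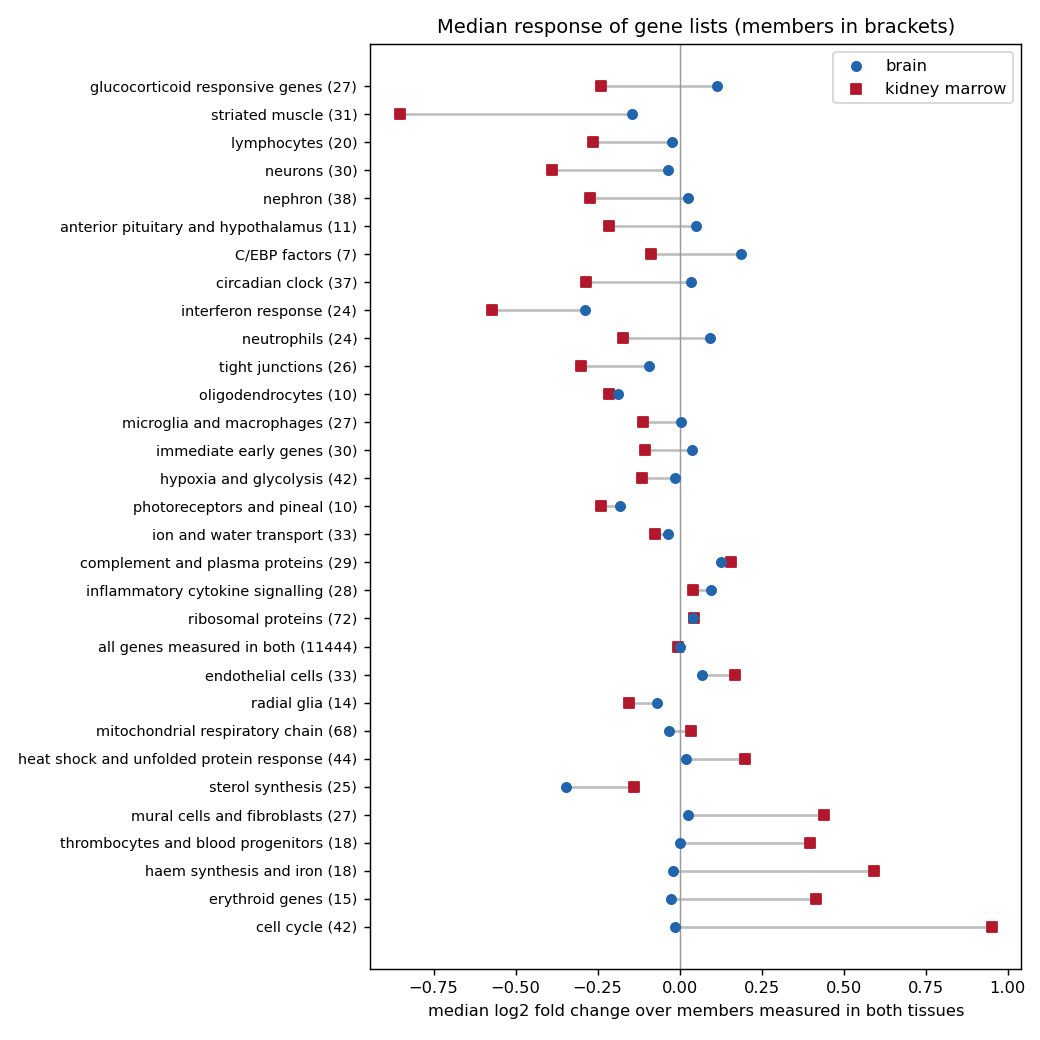
Median log2 fold change after ablation (horizontal axis) over the measured members of 30 gene lists, with the number of members in brackets, in brain (blue circles) and kidney marrow (red squares), beside all 11444 genes. The cell cycle list is farthest apart, at -0.0135 in brain and 0.952 in marrow; interferon and sterol genes lie below 0 in both tissues.

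Genes induced by interferon leaned the same way in both tissues. Of 24 measured members, 20 were below 0 in brain and 22 in marrow, 19 of them in both, with medians of -0.288 and -0.571. In marrow 10 fell by the 8-library fit and in brain 1 fell, isg15. The class of genes lower in both tissues held 6 of them: isg15, mxa, mxc and mxe of the Mx family, dhx58, a sensor of viral RNA, and stat1b, a transcription factor of interferon signalling. mxc was at 5.6 and 4.28 CPM in ablated and 23.3 and 21.0 CPM in uninjured marrow, and at 1.19, 1.17, 1.79 and 1.65 CPM in brain, with a difference of 1.63 ± 0.30 (adjusted p = 0.0697, edgeR). mxa, mxb, mxc and mxe are close paralogs, so that reads may be shared between them. rsad2, which encodes the antiviral protein viperin, fell by 1.65 in marrow (adjusted p = 0.0067) and was at -0.36 in brain.

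Sterol synthesis genes changed downward in brain as a group and in mixed directions in marrow. All 25 measured members were below 0 in brain, with a median of -0.348, and hmgcs1, sqlea and msmo1 fell there. In marrow 17 of 25 were below 0, the median was -0.139, and msmo1 alone fell, a share near the 3.36% of all genes called lower. The median difference was -0.232, and over all settings it ran from -0.32 to 0.02. insig1, a sterol-sensing regulator, showed the spread in marrow: 25.1 and 55.6 CPM in ablated and 20.2 and 65.9 CPM in uninjured libraries, against 49.3 and 67.6 CPM and 75.8 and 83.3 CPM in brain.

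**Figure D5:**
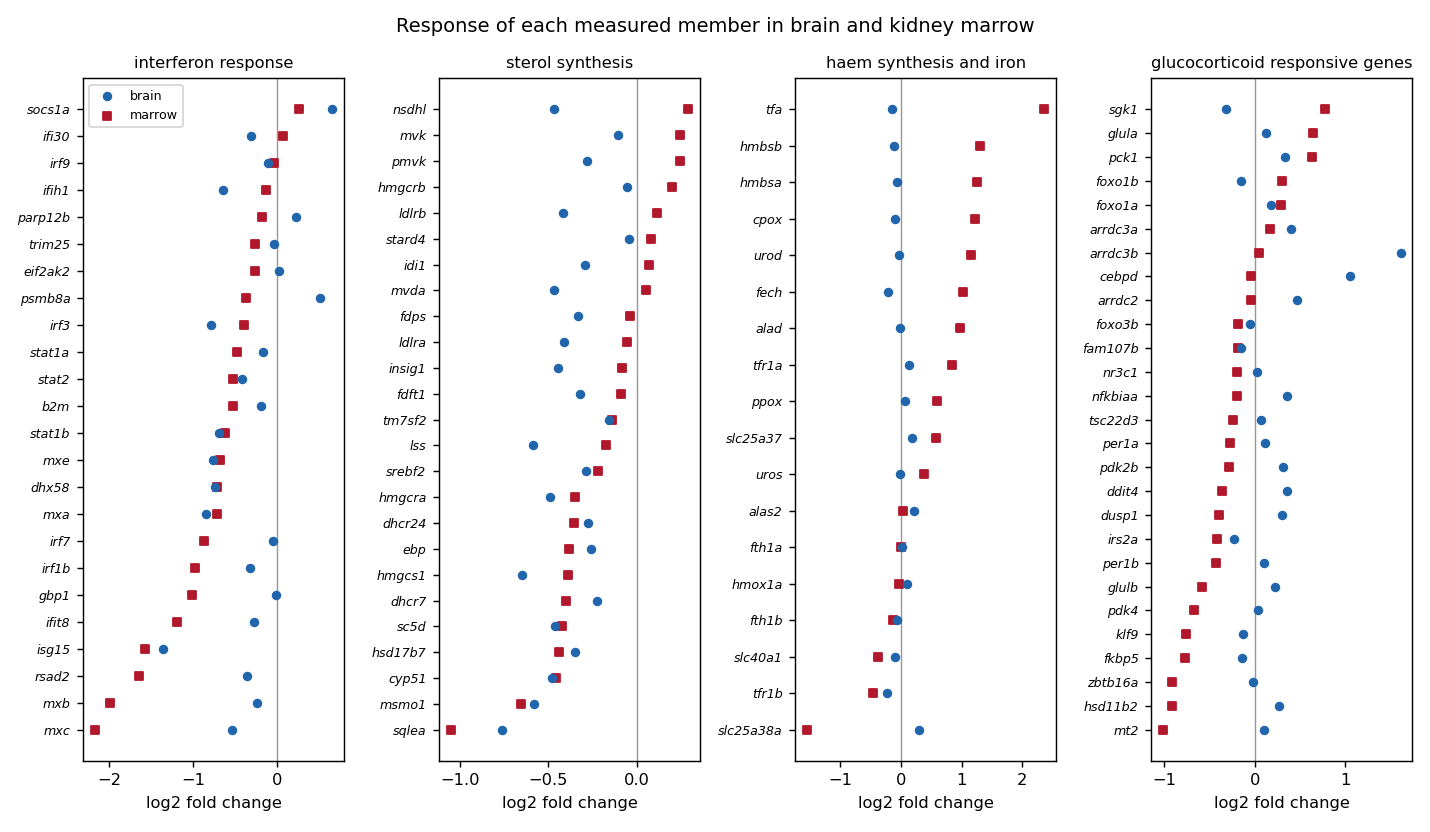
Log2 fold change after ablation (horizontal axis) of each measured member of 4 gene lists in brain (blue circles) and kidney marrow (red squares), ordered by the marrow value. In the haem list the brain points stay near 0 while hmbsb, hmbsa, cpox, urod and fech lie above 1 in marrow; in the sterol list all brain points lie below 0.

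Genes known to respond to glucocorticoids had a higher median change in brain than in marrow. Of 27 measured, 19 were above 0 in brain, with a median of 0.113, and 7 in marrow, with a median of -0.24. The summed level of the list was 4850 and 7990 CPM in ablated and 7650 and 8680 CPM in uninjured marrow, so that its groups overlapped. The median difference ran from 0.29 to 0.79 over the fits that left out 1 library. In brain 4 rose: cebpd, arrdc2, arrdc3a and arrdc3b. As the list was chosen with earlier results of these data known, these 4 calls may partly reflect that choice, and a glucocorticoid response was not tested. In marrow glula, a glutamine synthetase gene, rose, and mt2 and hsd11b2, whose enzyme inactivates cortisol, fell by the 8-library fit. The 1 rise was a share below the 6.97% of all genes called higher in marrow. hsd11b2 was at 474 and 754 CPM in ablated and 1072 and 1246 CPM in uninjured marrow. The stress-responsive chaperone gene fkbp5 was at 524 and 1432 CPM against 1664 and 1676 CPM in marrow, the 2 ablated libraries being far apart, and at 892 to 1225 CPM in brain. mt2 alone of the list was called for the tissue difference. All 7 C/EBP factors were above 0 in brain and 1 in marrow, cebpz, and only cebpd passed the threshold in brain. Circadian clock genes were above 0 in 22 of 37 in brain and in 7 of 37 in marrow, with medians of 0.036 and -0.286.

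Mural and fibroblast genes had a higher median change in marrow than in brain. The median difference of the endothelial list was near 0, unlike the values of stab2 and esm1. Of 27 mural and fibroblast genes, 21 were above 0 in marrow, with a median of 0.441, and 9 rose there by the 8-library fit, while 19 were above 0 in brain, with a median of 0.0249. tagln, a smooth muscle actin-binding protein gene, was at 94.9 and 117 CPM in ablated and 35.0 and 50.03 CPM in uninjured marrow, and at 5.52 to 7.28 CPM in brain. fn1b, ctgfa, a matricellular growth factor gene, and kcnj8, a pericyte potassium channel gene, were in the class of genes higher in both tissues. The summed level of the mural list was 2750 and 2770 CPM in ablated and 1920 and 2080 CPM in uninjured marrow, and 2 of its 30 genes were at 0 in all marrow libraries. Endothelial genes were above 0 in 21 of 33 in brain and in 22 of 33 in marrow, with a median difference of 0.00615. Their summed level was 2960 and 2400 CPM in ablated and 1840 and 1860 CPM in uninjured marrow, stab2 included. The part that a change in vessel or stromal cells has in the marrow values was not tested.

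Lists of other cell types also shifted in marrow. Of those given here, only striated muscle had a marrow median larger in size than the 0.441 of the mural and fibroblast list. Striated muscle genes had a median of -0.854 in marrow, with 4 of 31 above 0, and of -0.144 in brain, with 7 of 31 above 0. The 8-library fit called 6.97% of all genes higher in marrow and 3.36% lower, and 1 of the 31 muscle genes rose and 1 fell. Their summed level was 709 and 438 CPM in ablated and 911 and 645 CPM in uninjured marrow, so that the groups overlapped, and the median difference ran from 0.05 to 1.09 over the fits that left out 1 library. The nephron list summed to 24500 and 26700 CPM in ablated and 30900 and 32700 CPM in uninjured marrow, with 10 of 38 genes above 0 and a median of -0.274, and 6 genes fell by the 8-library fit. None of the 42 nephron genes in the files was at 0 in all marrow libraries. Neuronal genes, at 184 and 171 CPM in ablated and 220 and 230 CPM in uninjured marrow, had a median of -0.388 there, against -0.0347 in brain, with 5 of 30 above 0 in marrow, and 7 fell and 0 rose there by the 8-library fit. Thrombocyte and progenitor genes had a median of 0.397 in marrow and near 0 in brain, with 7 rising and 3 falling in marrow. f5, the gene of coagulation factor V, was at 82.7 and 101 CPM in ablated and 47.9 and 50.8 CPM in uninjured marrow. Neutrophil genes summed to 7890 and 8600 CPM in ablated and 9100 and 8660 CPM in uninjured marrow. Ribosomal protein genes had a median of 0.0397 in brain and 0.043 in marrow. The part of these shifts in the tissue difference was not tested.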

How the data were processed

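The authors deposited raw counts, that is unnormalized reads assigned to each gene symbol, made with HTSeq 1.6.1, per the submitters' processing notes. These give 1 list of tools for RNA-seq and ATAC-seq (Trim Galore 0.6.4 and 0.4.1, TopHat2 2.1.1, Bowtie2 2.2.5, SAMtools 1.5, Picard 1.91, MACS2) and the build danRer10. For annotation, strand setting and multiply mapped reads the choice is not given in the sources used here. The 5 summary lines were left out. Reads outside genes took 57.3% to 58.2% in brain and 37.4% to 41.5% in marrow, and ambiguous reads 0.254% to 1.23%. Depth is the range of gene reads given above, and counts under 10 carry wide counting error.

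The 8 libraries were fitted in R 4.3.3 with edgeR 4.0.16 (filterByExpr, TMM over all 8, glmQLFit, glmQLFTest, Benjamini-Hochberg threshold 0.05), with no replicate block. SE came from the F statistic, of the 8-library fit unless a fit of 4 libraries is named. CPM were computed from library sizes scaled by TMM. Fits of each tissue used its own 4 libraries. The fits were tested on simulated data. Alternatives were RLE and within-tissue scaling, DESeq2 1.42.0, voom (limma 3.58.1), 3 filters, replicate blocks, other limits for a response, and leaving out each library. Replicate correlations and a chi-square comparison found no library deposited more than once within a group. Libraries of unlike groups were not compared in this way.

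The comparison, the 30 gene lists (1140 genes, 956 in the files) and the rules were chosen with earlier results of these data known. Text names cebpd, called genes of at least 5 CPM with no clone symbol (10 per direction), up to 6 per class and direction, up to 3 called genes per list, and 6 per direction from the brain fit; members of lists named beyond these were chosen after their values were seen. A promoter comparison was not run. ATAC-seq and cebpd mutant libraries were not analysed here.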

Additional observations from a re-analysis of the deposited data

Results flagged for a closer look

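The change after ablation differed between brain and kidney marrow, by edgeR's test of the difference itself over the 8 libraries, in 34 genes. This count depended on single libraries and on the model, as given above and below. The marrow change was the larger in size in 32 of the 34, while its median size over all genes measured in both was 0.221, against 0.0767 in brain. In the 4 marrow libraries alone edgeR called 0 genes. The log2 differences of the 34 genes, brain change minus marrow change, follow in order of adjusted p within each direction. Where marrow had the higher change they were -1.94 for cp, -1.46 for tmem35, -1.71 for rgs7bpa, -1.46 for sae1, -2.35 for bdnf, -2.78 for esm1, -3.09 for stab2, -0.93 for anxa13, -1.14 for acat2 and -1.65 for tuba8l3. They were -1.29 for zgc:101840, -1.91 for crhbp, -2.16 for glipr2l, -0.84 for hars, -1.14 for lig1, -1.44 for suv39h1b, -1.17 for calua, -1.16 for sfxn5b, -1.20 for snrpg and -1.15 for cxcl12b. They were -2.16 for tpm4b, -1.78 for cyp1c2, -1.003 for mdka, -1.91 for mus81, -1.64 for itgb3b, -1.41 for olfml3b, -2.61 for si:dkey-6n6.1, -1.37 for smc2 and -1.19 for atic. Where brain had the higher change they were 1.43 for sat1a.1, 1.41 for slc43a2b, 1.44 for mtmr7a, 1.11 for mt2 and 0.72 for gstr.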

How the results depend on the processing

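All 34 genes kept their direction under each alternative that gave a value (32 genes under DESeq2, which gave 2 no adjusted p). As they were picked for large differences in the same libraries, a kept direction was likely from the start. Of them, the call held in 26 with RLE factors, 34 with TMM within each tissue, 32 with DESeq2, 24 with voom, 33 without a filter, 29 at a mean count of at least 50 and 32 with the filter passed in each tissue. With 2 libraries per group and 1 estimate of spread for tissues of unequal spread, counts depend on the model. The tissue difference gave 5 genes with the brain change above and 29 below. DESeq2 gave 104 and 160, voom 12 and 46, and TMM within tissue 44 below. Leaving out 1 library gave 0 to 115 above and 0 to 198 below. Genes with called opposite responses numbered 2, against 1 with RLE factors, 10 with DESeq2, 4 with voom, 8 at a limit of 0.3, 0 at a limit of 1, and 0 to 24 without 1 library. Genes higher in marrow alone numbered 22, against 36 with TMM within tissue, 111 with DESeq2, 39 with voom and 0 to 154 without 1 library. Genes lower in marrow alone numbered 3, against 71 with DESeq2, 7 with voom, 5 with either stricter filter and 0 to 92 without 1 library. The single gene private to brain became 5 with DESeq2 and 0 to 1 without 1 library. At limits of 0.3 and 1 the shared classes held 108 and 2 higher genes and 105 and 2 lower ones, and 39 to 58 and 44 to 86 without 1 library. Marrow medians of brain-called genes ran from 0.1026 to 0.3319 and from -0.3374 to -0.08471 without 1 library. Brain calls of 35 higher and 21 lower became 0 and 1 in the 8-library fit, 36 lower without a filter, and 25 to 99 and 12 to 101 without 1 library. Marrow calls of 0 became 429 and 178 with DESeq2, 912 and 440 in the 8-library fit, and at most 1 without 1 library. Class counts without 1 library rest on a looser rule, since non-overlap is easier to meet with 1 library in a group. The cause of these shifts was not tested.

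Whether same-numbered libraries share fish is not stated in the labels, and the correlations of their deviations from group means cannot decide it. These were 0.0498 between the brain groups and 0.181 between the marrow groups. Across tissues they were 0.0882 for the ablation groups and 0.128 for the uninjured groups. For groups of unlike condition they were 0.0457 and -0.00287. With a replicate block shared by tissues the tissue difference gave 20 and 88 genes, opposite responses 7, marrow alone 68 and 12, and brain alone 2. With a block within each tissue these were 61 and 196, 11, 154 and 35, and 4. The block gave 163 and 195 calls in brain and 433 and 165 in marrow. All 34 genes were called under either block.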
